A study of Homo sapiens with 6 samples.

Results

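The 8 genes examined here belong to the SREBP2 pathway of cholesterol synthesis: the enzymes HMGCS1, IDI1, FDFT1, SQLE, LSS and DHCR7, the retention protein INSIG1, and SREBF2, which encodes SREBP2 itself. They were taken as a named set, and the transcripts of each were joined by identifier to GENCODE on GRCh37 and their counts summed per gene. All 8 were found among 61014 genes with summed counts and all 8 were among the 20442 genes with enough counts to be tested. LncRNA sequencing (total RNA, random primers, strand kept) had been done on a derivative of MDA-MB-231 (triple-negative human breast cancer cells) made resistant to paclitaxel (PTX), a drug that stabilises microtubules. FACS with an ALDEFLUOR assay divided the resistant cells by aldehyde dehydrogenase (ALDH) activity into breast cancer stem cells (BCSC, ALDH+) and the remainder (non-BCSC, ALDH-), with 3 libraries of each. By the paper's account, both groups therefore carry PTX resistance and no drug-naive cells are among these 6 libraries. The comparison is then between 2 sorted fractions of 1 line. Titles gave the groups, since the cell type label was identical for all 6 libraries. The BCSC titles name PTX resistance and the line, whereas the non-BCSC titles name neither. Nothing in the labels says that the replicates were separate cultures, so the p-values measure the spread between these libraries, which may be technical.

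Cells make cholesterol from acetyl-CoA through mevalonate, isoprenoid units, squalene and lanosterol. When sterol in the endoplasmic reticulum is low, the escort protein SCAP carries SREBP2 to the Golgi, where 2 proteases release its transcription factor domain. That domain raises the genes of synthesis and uptake. When sterol is high, INSIG proteins hold SCAP and SREBP2 in the endoplasmic reticulum, and because INSIG1 is itself a target of SREBP its RNA is widely read as a marker of the pathway's activity. These statements are background and were not measured here.

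SREBP acts at sterol regulatory elements, usually beside a CCAAT box bound by NF-Y. The bases upstream of the start site are shown for INSIG1 and HMGCS1, the members with the largest differences between the groups, and for SREBF2 and LSS, which did not pass the test. They come from RefSeq (build GRCh38.p14), run 5′ to 3′ along the strand of the gene, and end at the base before the start. For HMGCS1, which has 2 listed starts, the more upstream is shown. Capitals mark TCACNCCAC, a sterol regulatory element of the classical form, and CCAAT, each searched on both strands, so that ATTGG is CCAAT on the other strand. The 4 windows are chr7:155297628-155297877 on the plus strand for INSIG1, chr5:43313413-43313662 on the minus strand for HMGCS1, chr22:41832855-41833104 on the plus strand for SREBF2 and chr21:46228775-46229024 on the minus strand for LSS.
INSIG1: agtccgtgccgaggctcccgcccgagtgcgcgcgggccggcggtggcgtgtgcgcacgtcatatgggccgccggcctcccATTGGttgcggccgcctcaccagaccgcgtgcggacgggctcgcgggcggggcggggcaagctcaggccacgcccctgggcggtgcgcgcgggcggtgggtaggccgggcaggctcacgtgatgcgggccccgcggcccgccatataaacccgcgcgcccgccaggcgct
HMGCS1: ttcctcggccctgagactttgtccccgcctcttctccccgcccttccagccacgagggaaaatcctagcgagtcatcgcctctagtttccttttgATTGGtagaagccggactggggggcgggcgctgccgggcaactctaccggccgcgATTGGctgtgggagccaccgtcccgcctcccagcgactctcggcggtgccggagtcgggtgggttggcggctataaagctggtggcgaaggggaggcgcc
SREBF2: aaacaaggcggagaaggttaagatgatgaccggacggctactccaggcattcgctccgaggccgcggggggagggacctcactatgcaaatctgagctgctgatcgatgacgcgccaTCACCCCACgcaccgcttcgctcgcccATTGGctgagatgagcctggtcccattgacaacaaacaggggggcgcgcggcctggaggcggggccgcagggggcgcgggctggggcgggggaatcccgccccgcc
LSS: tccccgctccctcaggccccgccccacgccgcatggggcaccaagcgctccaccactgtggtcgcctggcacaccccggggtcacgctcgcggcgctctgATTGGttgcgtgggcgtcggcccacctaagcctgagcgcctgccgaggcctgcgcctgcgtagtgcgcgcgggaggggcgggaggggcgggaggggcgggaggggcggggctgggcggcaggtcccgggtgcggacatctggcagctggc

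The table of promoters (250 bases before to 50 after each start) held 10 entries for 6 of the members, HMGCS1, IDI1, LSS, DHCR7, INSIG1 and SREBF2. SQLE and FDFT1 had no entry. TCACNCCAC was present in 1 of the 10, that of SREBF2, where it began 133 bases before the start, with a CCAAT box of the other strand at 106 bases. It occurred in 1.13% of all 35116 promoters. A CCAAT box was present in 7 of the 10 entries, and each of the 6 genes had it in at least 1 of its entries, against 34.6% of all promoters. In the sequences shown it began 170 bases before the start in INSIG1, at 155 and 100 bases in HMGCS1 and at 150 bases in LSS. The GC box GGGCGG, a site for SP1, was present in 9 of the 10 and in 45.0% of all promoters, and the E-box CACGTG in 2 of the 10 and in 7.26%. The members that differed between the groups and those that did not thus both held CCAAT boxes. No motif searched contains another, and a match is a description of letters only. Other forms of the sterol regulatory element and sites outside these windows were not searched. A missing match therefore does not show that the element is absent.

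Of the 8 members, 5 were lower in BCSC than in non-BCSC, INSIG1, HMGCS1, IDI1, FDFT1 and SQLE, by 2.43 to 12.8 times. For each of these 5 all 3 BCSC libraries lay below all 3 non-BCSC libraries. LSS, DHCR7 and SREBF2 did not pass the test, and none of the 8 was higher. The test was edgeR's quasi-likelihood test on the gene sums, with Benjamini-Hochberg adjustment over the 20442 genes, and a gene passed at an adjusted p under 0.05. Of all genes tested, 14.6% were lower in BCSC and 15.3% were higher by this rule. With a fold above 2 added, as the study's methods require, the same 5 members stayed, against 11.3% of all genes lower. Groups with all BCSC libraries below all non-BCSC libraries were found for 27.9% of all genes. The median log2 fold change of the 8 members was -1.32, and that of all genes tested was -0.05. Counted from the lowest log2 fold change of all genes, INSIG1 was at percentile 6.71, HMGCS1 at 14.4 and IDI1 at 18.3. FDFT1 was at 23.7, SQLE at 24.4, DHCR7 at 37.9, LSS at 54.4 and SREBF2 at 56.2. Summed over the 8 genes, levels in CPM (counts relative to TMM-scaled library sizes) were 416 ± 59.0 in BCSC and 1372 ± 150 in non-BCSC (SD, n = 3 each), 3.30 times higher in non-BCSC. In bulk libraries, less RNA of a gene per cell and fewer cells that make it cannot be told apart.

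**Figure D1:**
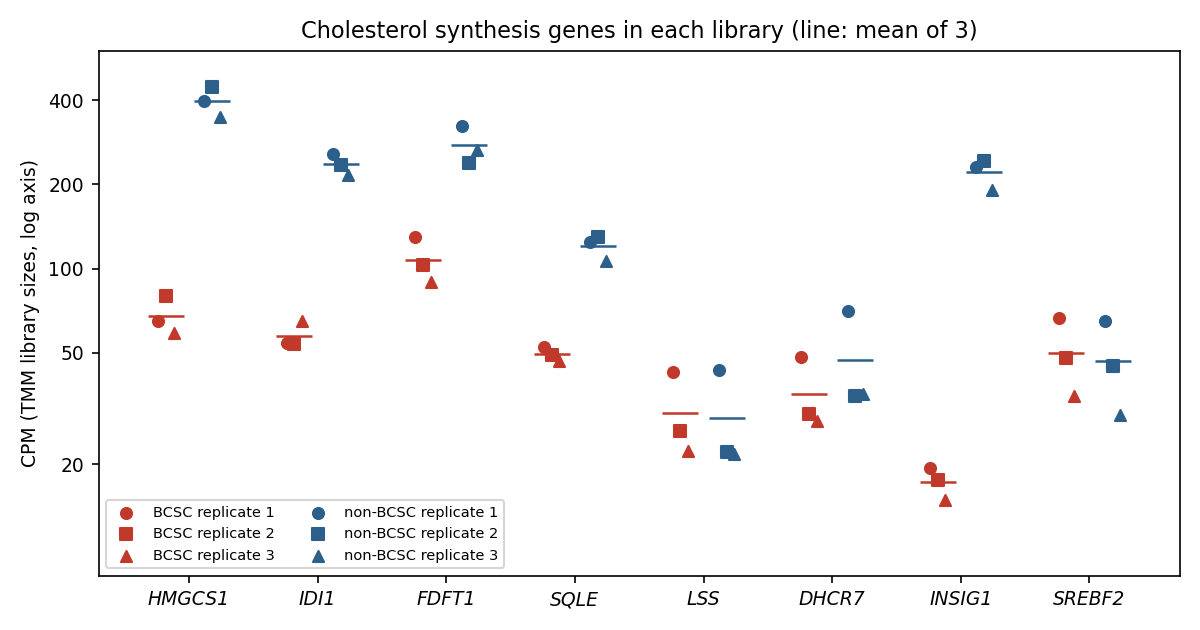
CPM of each member (log axis) in the 3 BCSC libraries (red) and the 3 non-BCSC libraries (blue), with the marker shape giving the replicate number and the line the group mean. For HMGCS1, IDI1, FDFT1, SQLE and INSIG1 all red points lie below all blue points, whereas for LSS, DHCR7 and SREBF2 the groups overlap. Replicate 1 is highest in each group for LSS, DHCR7, SREBF2 and FDFT1.

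The first enzyme of the set, HMGCS1 (ENSG00000112972, GRCh37 chromosome 5, 43287572 to 43313614), makes HMG-CoA for the mevalonate pathway. Its level was 64.8, 79.9 and 59.0 CPM in the BCSC libraries and 397, 447 and 347 CPM in the non-BCSC libraries. The lowest non-BCSC library was thus far above the highest BCSC library. The log2 fold change was -2.55 ± 0.15 (SE), or 5.85 times lower in BCSC (adjusted p = 2.42e-05). IDI1 (ENSG00000067064, chromosome 10, 1085092 to 1095043), which interconverts the 5-carbon isoprenoid building blocks, was at 54.2, 53.8 and 64.8 CPM in BCSC and at 256, 235 and 215 CPM in non-BCSC. The groups did not overlap, and the log2 fold change was -2.03 ± 0.13, or 4.09 times lower (adjusted p = 3.50e-05).

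Squalene synthase and squalene epoxidase follow, and both catalyse steps committed to sterols. FDFT1 (ENSG00000079459, chromosome 8, 11653082 to 11696904), the synthase, was at 130, 103 and 89.3 CPM in BCSC and at 322, 238 and 266 CPM in non-BCSC. The groups did not overlap, although replicate 1 stood above the others in each, and its log2 fold change was -1.36 ± 0.16, or 2.56 times lower (adjusted p = 0.000762). SQLE (ENSG00000104549, chromosome 8, 126010739 to 126034525), the epoxidase and an enzyme that limits the rate of the later pathway, was at 52.5, 49.1 and 46.9 CPM in BCSC and at 125, 129 and 106 CPM in non-BCSC. Its BCSC libraries lay close together, and its log2 fold change was -1.28 ± 0.13, or 2.43 times lower (adjusted p = 0.000384).

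LSS and DHCR7 act later in the pathway, and neither passed the test. LSS (ENSG00000160285, chromosome 21, 47608055 to 47648738), which folds oxidised squalene into lanosterol, was at 42.6, 26.2 and 22.3 CPM in BCSC and at 43.6, 22.1 and 21.8 CPM in non-BCSC. The groups overlapped throughout and the log2 fold change was 0.06 ± 0.33, with a 95% interval from -0.69 to 0.81 (adjusted p = 0.907). DHCR7 (ENSG00000172893, chromosome 11, 71139239 to 71163914), which catalyses the last step to cholesterol in 1 branch of the pathway, was at 48.2, 30.3 and 28.6 CPM in BCSC and at 70.5, 35.0 and 35.6 CPM in non-BCSC. Only replicate 1 of BCSC lay above the lowest non-BCSC libraries, and the log2 fold change was -0.40 ± 0.31, with an interval from -1.09 to 0.29 (adjusted p = 0.354). In this fit neither interval reached the log2 fold change of SQLE, the smallest of the 5. With each library left out in turn, LSS ran from -0.27 to 0.52 and DHCR7 from -0.68 to 0.072. The correction for GC content and length described further on put LSS at -0.93 and DHCR7 at -1.39, against -0.84 for SQLE.

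INSIG1 (ENSG00000186480, chromosome 7, 155089486 to 155101945) had the largest difference of the 8. Its level was 19.4, 17.6 and 14.9 CPM in BCSC and 231, 242 and 191 CPM in non-BCSC. Every non-BCSC library was far above every BCSC library, and the log2 fold change was -3.67 ± 0.15, or 12.8 times lower (adjusted p = 3.13e-06). SREBF2 (ENSG00000198911, chromosome 22, 42229109 to 42303310) was at 66.8, 48.1 and 35.1 CPM in BCSC and at 65.2, 44.7 and 29.9 CPM in non-BCSC. Both groups covered the same range, and the log2 fold change was 0.10 ± 0.30, with an interval from -0.57 to 0.77 (adjusted p = 0.823). After the correction for GC content and length described further on, SREBF2 was lower in BCSC (-0.72, adjusted p = 0.0394).

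Levels were compared between genes per length, as TPM, computed from the transcript counts divided by their annotated lengths and scaled to the same total in each library. In non-BCSC, FDFT1 was highest with 410 ± 74.1 TPM (SD, n = 3), followed by HMGCS1 (240 ± 30.8), IDI1 (233 ± 39.8) and INSIG1 (232 ± 21.7), whose libraries overlapped one another. SQLE followed with 118 ± 6.41 TPM, then DHCR7 (46.7 ± 18.6), SREBF2 (30.3 ± 8.15) and LSS (21.1 ± 14.2), and these last 3 overlapped. In BCSC, FDFT1 was again highest with 147 ± 25.03 TPM, followed by IDI1 (59.5 ± 1.94), SQLE (46.0 ± 0.529), HMGCS1 (45.3 ± 3.54) and DHCR7 (36.5 ± 10.8), the last 3 with overlapping libraries. SREBF2 (28.1 ± 6.81), INSIG1 (21.3 ± 8.57) and LSS (18.8 ± 4.42) were lowest and overlapped. By this measure INSIG1 stood beside HMGCS1 in non-BCSC and beside LSS in BCSC. TPM depends on the length of the transcript to which counts were assigned. INSIG1 was at 16.7, 31.1 and 15.9 TPM in the BCSC libraries. In replicate 2, 197 of its counts were on INSIG1-206, of 1320 bases, against 2908 bases for INSIG1-201.

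The members also differed in how the libraries of 1 group varied. LSS, DHCR7 and SREBF2 were highest in replicate 1 of both groups, as was FDFT1 among the 5 lower members. The log2 CPM of LSS, DHCR7 and SREBF2 moved together over the 6 libraries (Pearson's r of 0.867 for LSS with DHCR7, 0.907 for LSS with SREBF2 and 0.732 for SREBF2 with DHCR7). The 5 lower members moved together across the groups, with r from 0.946 to 0.997 between pairs. These correlations describe 6 libraries that share the group difference and their depth, and carry no test.

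GC content ran along with this division. The transcripts of LSS, DHCR7 and SREBF2 held 58.2%, 57.9% and 57.3% GC, against 37.5% in IDI1, 39.1% in HMGCS1, 44.9% in INSIG1, 46.3% in SQLE and 48.1% in FDFT1, with a median of 44.8% over all genes tested. Over all genes, GC content and the log2 fold change had a rank correlation of 0.54, that is, GC-rich genes tended to be higher in BCSC. Within libraries, the rank correlation of GC content with the deviation from the mean of all libraries was 0.64, 0.46 and 0.24 in the BCSC libraries and -0.24, -0.48 and -0.49 in the non-BCSC libraries. It separated the groups and also differed between libraries of 1 group.

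With a correction for GC content and length in each library, all 8 members were lower in BCSC, against 10.4% of all genes lower and 24.9% higher. LSS then had a log2 fold change of -0.93 (adjusted p = 0.0117) and DHCR7 of -1.39 (adjusted p = 0.000898), and SREBF2 passed as given above. The difference of IDI1 shrank to -0.64 (adjusted p = 0.0460) and that of HMGCS1 to -1.74 (adjusted p = 0.000425), while INSIG1 stayed at -3.04 (adjusted p = 3.95e-05). SQLE was at -0.84 and FDFT1 at -1.14. IDI1, SREBF2, SQLE and LSS thus did not reach a fold of 2 after the correction. Counted again from the lowest corrected log2 fold change of all genes, INSIG1 was at percentile 5.64, HMGCS1 at 15.4 and DHCR7 at 18.9. FDFT1 was at 21.9, LSS at 24.4, SQLE at 25.7, SREBF2 at 27.7 and IDI1 at 29.1. The correction moved the median of all genes from -0.05 to 0.19, and of the genes called in either direction the share that was higher in BCSC rose from 51.2% to 70.6%. It assumes that GC content and length should bear no relation to the difference between the groups, which was not tested.

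**Figure D2:**
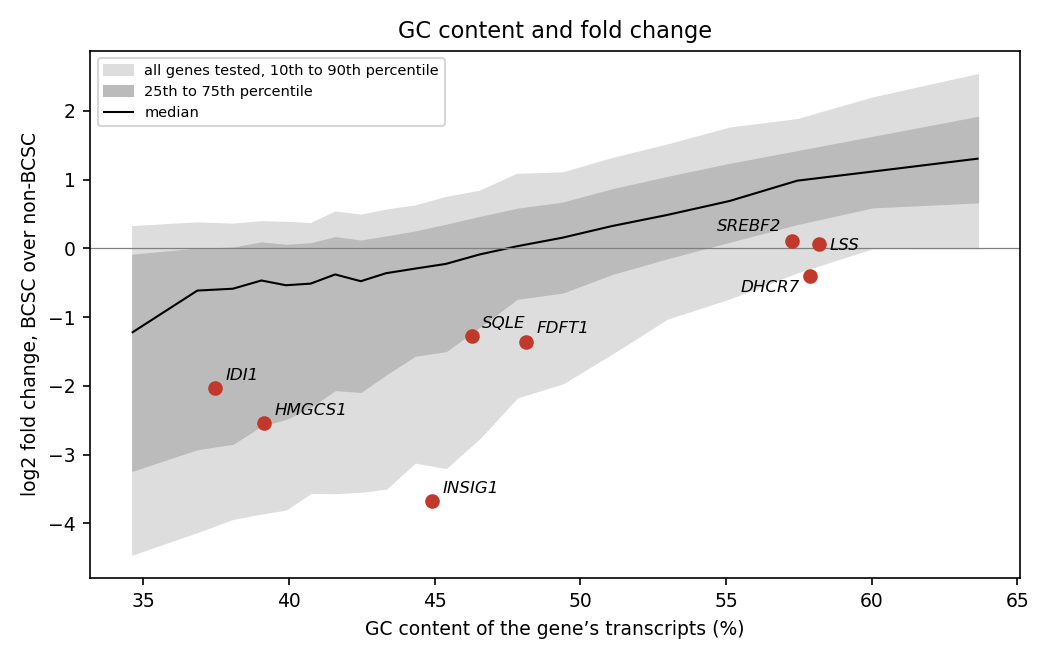
Log2 fold change (BCSC over non-BCSC) against the GC content of a gene's transcripts in percent, with the bands and line giving percentiles over 20 bins of all 20442 genes tested and the red points the 8 members. All 8 points lie below the median of genes of like GC content. IDI1 lies within the inner band, HMGCS1 at its lower edge, and INSIG1 and DHCR7 below the outer band.

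Reads outside the expected genes also differed between the groups. Olfactory receptor genes, which breast cancer cells are not known to use, held 0.966 to 3.002 counts per kb in the BCSC libraries and 7.85 to 14.4 in the non-BCSC ones, taken here as background. That background would make up at most 3.76% of the counts of HMGCS1, IDI1, FDFT1, SQLE and INSIG1 in any library. In non-BCSC replicate 3 it would make up 26.8% of the counts of LSS, 24% of SREBF2 and 10.3% of DHCR7. With the background subtracted the same 5 members were lower, with log2 fold changes from -3.99 (INSIG1) to -1.56 (SQLE), and LSS (-0.046), DHCR7 (-0.63) and SREBF2 (-0.051) did not pass.

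**Figure D3:**
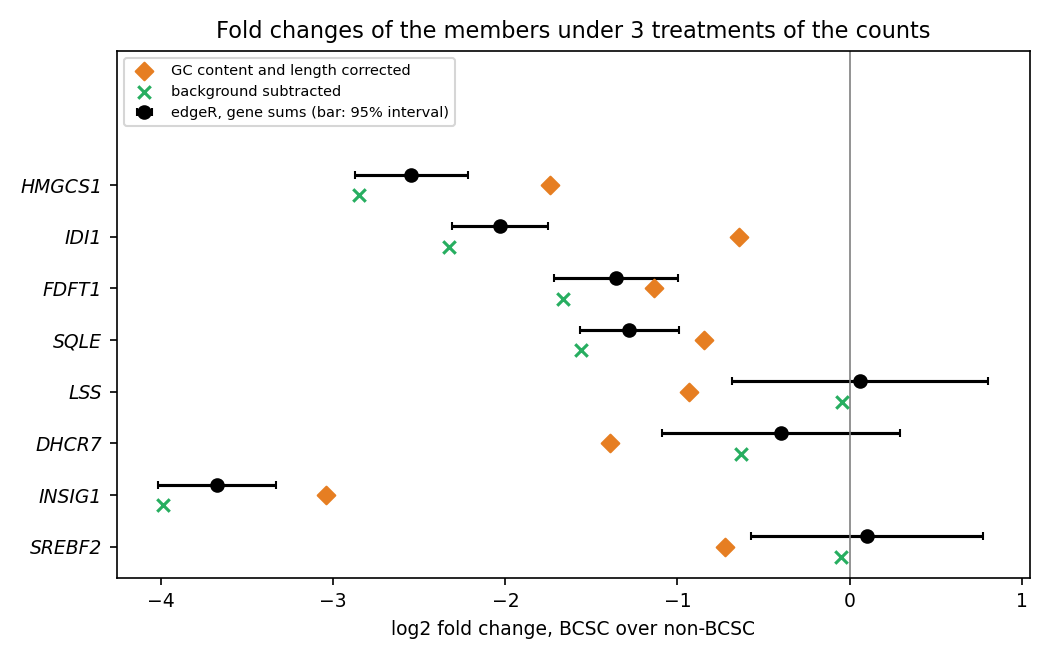
Log2 fold changes (BCSC over non-BCSC) of the 8 members from the gene sums with 95% intervals (black), after correction for GC content and length (orange) and after background subtraction (green). The 5 lower members stay left of 0 in all 3, and LSS, DHCR7 and SREBF2 lie left of 0 by 0.72 or more only after the GC correction.

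Total counts ran from 9898588 to 21215352, with each BCSC library deeper than each non-BCSC library. Of 7 markers of MDA-MB-231, VIM (2320 to 3735 CPM), CD44 (1251 to 2802), CAV1 (209 to 588), AXL (142 to 322) and EGFR (140 to 204) were abundant in all 6 libraries, and CD44, CAV1 and AXL were higher in BCSC. The keratins KRT8 (4.84 to 68.7 CPM) and KRT18 (0.979 to 12.5 CPM) were low and were lower in BCSC, with log2 fold changes of -3.15 (adjusted p = 0.000129) and -2.56 (adjusted p = 0.00490). Among markers expected to be low in this line, ERBB2 was at 54.7 to 85.7 CPM and did not pass (adjusted p = 0.2195). PGR was at 0.326 to 1.39 CPM in BCSC and 7.26 to 19.1 CPM in non-BCSC (log2 fold change -4.2, adjusted p = 0.00218). ESR1, CDH1 and GATA3 were counted in all 6 libraries and did not pass, and EPCAM had too few counts for the test. The part of background in the PGR counts was not tested. For 7 markers of other cells the summed level was 1.43 to 4.54 CPM in BCSC and 20.8 to 35.0 CPM in non-BCSC. Of these, the leukocyte marker PTPRC made up most in non-BCSC, and LYZ and CD79A were at 0 in 5 and 4 of the 6 libraries. The part of these counts in the results was not tested. Of the enzymes that the ALDEFLUOR assay can report, ALDH1A3 was at 25.6, 30.5 and 33.4 CPM in BCSC and at 23.5, 17.0 and 12.1 CPM in non-BCSC (log2 fold change 0.77, adjusted p = 0.0577). ALDH1A1 was counted 0, 5 and 6 times in BCSC and 38, 28 and 32 times in non-BCSC, and was thus lower in the fraction labelled ALDH+ (log2 fold change -3.63, adjusted p = 0.0446). These counts were few, and the olfactory receptor background was also higher in non-BCSC (7.85 to 14.4 counts per kb, against 0.966 to 3.002 in BCSC). The part of that background in the ALDH1A1 counts was not tested.

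The counts were deposited by transcript, and the transcripts showed which isoforms carried each gene. The annotation had 84 transcripts of the 8 members, of which 61 were counted and 29 were tested. HMGCS1-201, the main coding transcript of HMGCS1, was counted 983, 967 and 634 times in BCSC and 4153, 4561 and 3507 times in non-BCSC. It was the only member transcript to pass the test at transcript level (log2 fold change -2.77 ± 0.24, adjusted p = 0.0336), in a test that called 0.81% of 46176 transcripts. With any 1 library left out, no member transcript passed. At an unadjusted p under 0.05 there were 8 member transcripts, and DESeq2 called 7. SQLE-201 held 93.6% to 99.1% of the counts of SQLE in every library and had a log2 fold change of -1.17 ± 0.21 (adjusted p = 0.0681). INSIG1-201 was at -3.87 ± 0.64 (adjusted p = 0.0610) and FDFT1-201 at -1.40 ± 0.28 (adjusted p = 0.0744).

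Counts also moved between isoforms from library to library of 1 group. In INSIG1, INSIG1-201 held 394, 63 and 232 counts in the BCSC libraries, and INSIG1-206 led in BCSC replicate 2 with 197. FDFT1-201 led in every library, but FDFT1-202 held 1239 counts in non-BCSC replicate 1 and 0 in the others. IDI1-206 held 1043, 800 and 0 counts in the BCSC libraries and 3005, 0 and 1642 in the non-BCSC ones. IDI1-203, a second coding transcript, held 1, 13 and 997 counts in the BCSC libraries and 0, 2605 and 568 in the non-BCSC ones, so that the sum was stable where neither isoform was. In SREBF2 the coding transcript SREBF2-201 led in BCSC replicates 1 and 2, with 94.98% and 91.99% of the counts, and held none elsewhere. There SREBF2-202, a transcript annotated for nonsense-mediated decay, led with 490 counts in BCSC replicate 3 and 699, 414 and 254 in non-BCSC. LSS-202 was counted 655, 266 and 0 times in BCSC and 0, 166 and 202 times in non-BCSC, and DHCR7-205 was counted 117, 381 and 411 times in BCSC and 397, 376 and 0 times in non-BCSC. The coding transcripts of SREBF2 summed alone did not pass the filter of that fit, since SREBF2-201 was counted 1287 and 678 times in BCSC replicates 1 and 2 and 0 times in the other 4 libraries. No isoform difference of IDI1, SREBF2, LSS or DHCR7 can be told apart from the assignment of reads.

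**Figure D4:**
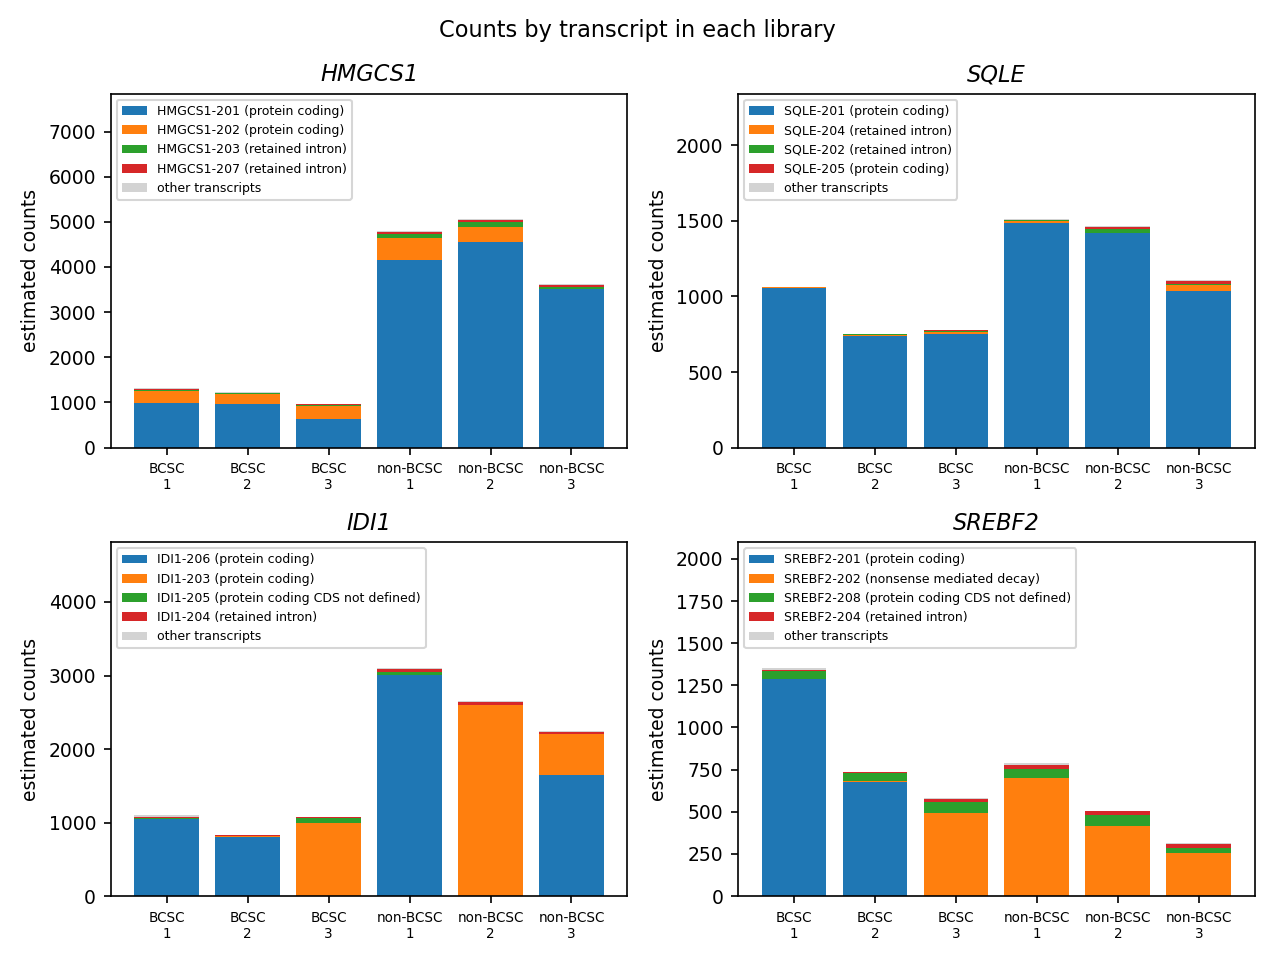
Estimated counts by transcript (stacked bars, from 0) in each library for HMGCS1, SQLE, IDI1 and SREBF2. HMGCS1-201 and SQLE-201 lead in every library, whereas the leading transcript of IDI1 and of SREBF2 changes between libraries of the same group.

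The rest of the pathway was read from 5 further lists of 62 genes, of which 61 were tested. Of these 61, 11 were lower in BCSC, 15 were higher and 35 did not pass, against the 14.6% and 15.3% of all genes given above. The median log2 fold change was 0.12. With a fold above 2 the counts were 5 lower and 11 higher, against 11.3% of all genes lower and 8.85% higher. The count of lower genes was 5 without BCSC replicate 2 and 7 without non-BCSC replicate 2. After the GC correction it was 6, with 22 higher. Of the 11 lower genes 7 were synthesis enzymes, and the 15 higher ones lay in the other lists.

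Of 16 other synthesis enzymes, 7 were lower, none was higher and 9 did not pass, with a median log2 fold change of -0.26. MSMO1, which removes methyl groups from early sterols, was at 35.0, 39.0 and 48.8 CPM in BCSC and at 161, 183 and 162 CPM in non-BCSC, with no overlap (log2 fold change -2.04 ± 0.15, adjusted p = 7.21e-05). CYP51A1, the lanosterol demethylase, had a log2 fold change of -1.34 ± 0.14 (adjusted p = 0.000509), and LBR, a lamin B receptor with sterol reductase activity, of -0.78 ± 0.14 (adjusted p = 0.00413). Named after their values were seen, ACAT2 (-0.60), SC5D (-0.65) and HSD17B7 (-0.99) were lower too. Each of these 3 lost its call after the GC correction (0.089, 0.33 and -0.065) and without BCSC replicate 2 (with an adjusted p of 0.0550, 0.0575 and 0.0813). SC5D also lost it without non-BCSC replicate 2 (adjusted p = 0.0660) and HSD17B7 without BCSC replicate 1, BCSC replicate 3 or non-BCSC replicate 2 (with an adjusted p of 0.0908, 0.0742 and 0.128), and both with coding transcripts only (adjusted p = 0.959 and 0.614). After the GC correction 3 of the 16 were lower, and MSMO1 (-0.49, adjusted p = 0.0752), CYP51A1 (-0.32, adjusted p = 0.225) and LBR (0.31, adjusted p = 0.160) did not pass. With a block for replicate number added to that correction, MSMO1 (-0.47, adjusted p = 0.00672) and CYP51A1 (-0.33, adjusted p = 0.0370) passed as lower. LBR (0.32, adjusted p = 0.00962) and SC5D (0.34, adjusted p = 0.0148) then passed as higher in BCSC.

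Of 12 regulators of SREBP, 5 were higher, 2 were lower and 5 did not pass, with a median of 0.19. SREBF1, which encodes the related factor SREBP1, was lower, at 25.2, 17.6 and 11.5 CPM in BCSC and 54.9, 36.6 and 35.9 CPM in non-BCSC (log2 fold change -1.23 ± 0.30, adjusted p = 0.0157). ERLIN1, an endoplasmic reticulum scaffold, was higher (0.68 ± 0.12, adjusted p = 0.00433). PAQR3, a Golgi anchor of SCAP, was also higher (1.37 ± 0.15, adjusted p = 0.000614), but with coding transcripts alone it was at 0.36 (adjusted p = 0.554). Named after their values were seen, SCAP was higher (1.61) and INSIG2, the relative of INSIG1, was lower (-0.66). After the GC correction SCAP no longer passed (0.29, adjusted p = 0.420), INSIG2 turned to 0.84 (adjusted p = 0.00372) and SREBF1 was at -2.66 (adjusted p = 5.14e-05). SREBF1 missed the threshold without BCSC replicate 2 (adjusted p = 0.0597) and without non-BCSC replicate 1 (adjusted p = 0.0633). INSIG2 missed it when any library but BCSC replicate 3 was left out (adjusted p from 0.0520 to 0.134) and SCAP with coding transcripts only (adjusted p = 0.0728) and background subtraction (adjusted p = 0.0563).

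Of 14 genes of uptake and transport within the cell, 5 were higher, 1 was lower and 8 did not pass, with a median of 0.57. STARD4, a carrier of cholesterol between membranes, was the lower gene, at 39.2, 38.8 and 41.3 CPM in BCSC and 125, 160 and 134 CPM in non-BCSC (log2 fold change -1.81 ± 0.13, adjusted p = 7.68e-05). NPC1 and NPC2, which move cholesterol out of lysosomes, were both higher, with log2 fold changes of 1.01 ± 0.18 (adjusted p = 0.00484) and 1.06 ± 0.22 (adjusted p = 0.00849). GRAMD1A, a sterol carrier at membrane contacts, was higher as well (1.43 ± 0.33, adjusted p = 0.0125), as was GRAMD1B (0.84), which was named after its value was seen. After the GC correction NPC1 (1.07) and NPC2 (1.46) still passed, as in every alternative, while STARD4 (-0.52, adjusted p = 0.0942) and GRAMD1A (-0.035, adjusted p = 0.919) did not. GRAMD1A also lost its call without BCSC replicate 1 (adjusted p = 0.0573), and GRAMD1B without BCSC replicate 1, BCSC replicate 2 or non-BCSC replicate 2 (with an adjusted p of 0.111, 0.0652 and 0.0563) and with coding transcripts only (adjusted p = 0.433).

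Of 9 genes of efflux, storage and oxysterol response, 8 were tested, and 3 were higher and none lower, with a median of 0.67. NCEH1, a cholesteryl ester hydrolase, was at 115, 124 and 139 CPM in BCSC and 68.2, 67.0 and 52.2 CPM in non-BCSC (log2 fold change 1.01 ± 0.14, adjusted p = 0.00158). ABCA1, which exports cholesterol, was at 0.54 ± 0.12 (adjusted p = 0.0112) and SOAT1, which esterifies it, at 0.47 ± 0.13 (adjusted p = 0.0213). CYP27A1, which makes an oxysterol, was low, with 4.38 ± 1.03 CPM in BCSC and 1.42 ± 0.337 CPM in non-BCSC, and did not pass (adjusted p = 0.0766). NCEH1 passed in every alternative. ABCA1 lost its call with coding transcripts only (0.38, adjusted p = 0.0712). SOAT1 lost it with background subtraction (0.27, adjusted p = 0.170), with coding transcripts only (0.32, adjusted p = 0.153), with at least 10 counts in every library (0.32, adjusted p = 0.0749) and without BCSC replicate 2, BCSC replicate 3 or non-BCSC replicate 3 (with an adjusted p of 0.0661, 0.0672 and 0.0628). After the GC correction all 3 were higher, at 1.77, 0.71 and 1.12.

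Of 11 genes of the isoprenoid branch, 2 were higher, 1 was lower and 8 did not pass, with a median of 0.04. ICMT, which methylates prenylated proteins, rose by 1.09 ± 0.18 (adjusted p = 0.00336) and DHDDS, of dolichol synthesis, by 1.32 ± 0.33 (adjusted p = 0.0167). DHDDS lost its call with coding transcripts only (adjusted p = 0.100) and without BCSC replicate 1, BCSC replicate 2 or non-BCSC replicate 3 (with an adjusted p of 0.0647, 0.0568 and 0.0528), and ICMT kept it in every alternative. PDSS2, of coenzyme Q synthesis, was lower (-0.55 ± 0.17, adjusted p = 0.0380), which the GC correction ended (0.17, adjusted p = 0.5005), as did leaving out any library but BCSC replicate 3 (adjusted p from 0.0871 to 0.136). FNTB, a farnesyltransferase subunit, was at 6.70 ± 1.12 CPM in BCSC and 1.41 ± 1.56 CPM in non-BCSC and did not pass (adjusted p = 0.122).

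**Figure D5:**
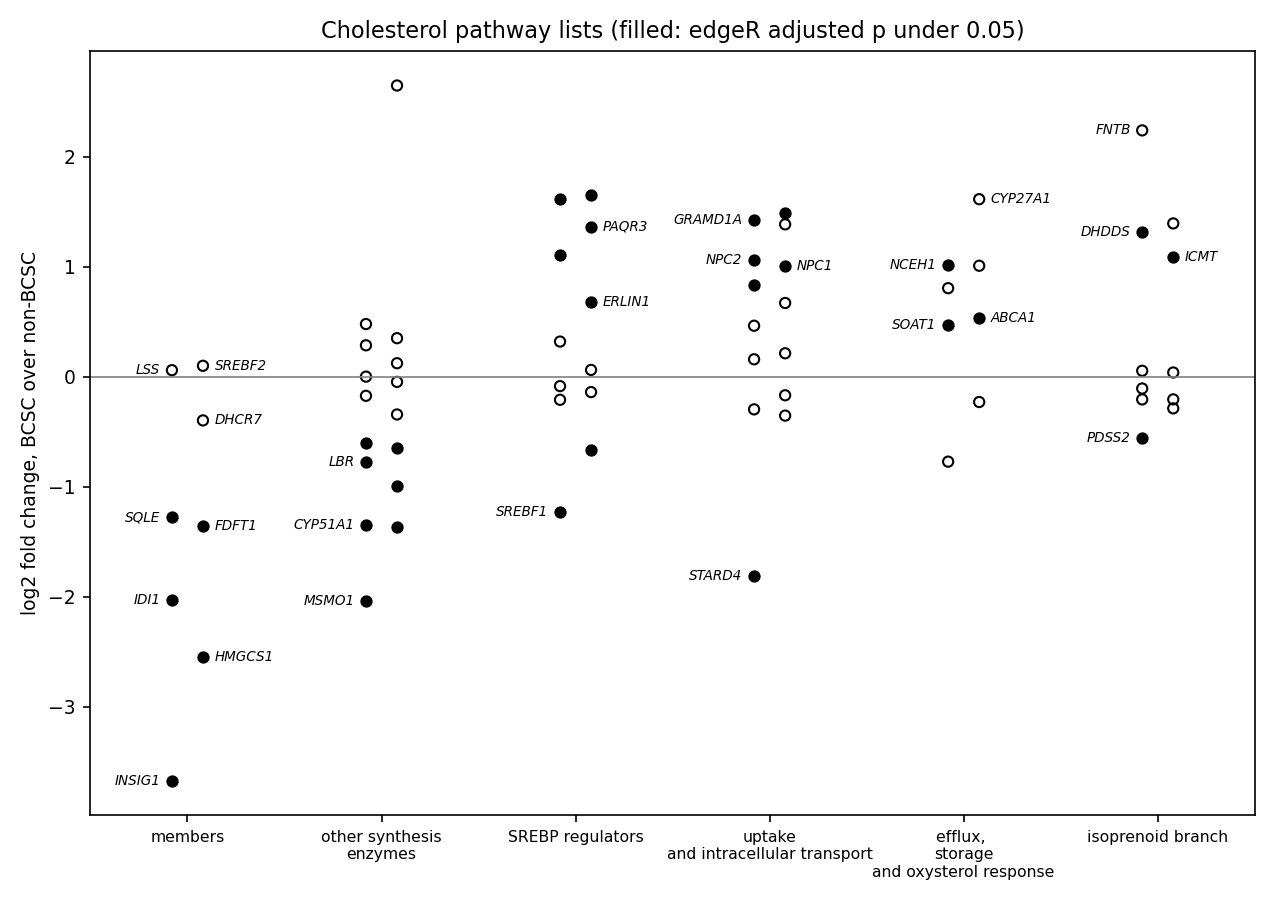
Log2 fold change (BCSC over non-BCSC) of each tested gene in the 8 members and the 5 other lists, filled where the adjusted p was under 0.05. Genes named in the text are labelled, except those named after their values were seen. Filled points of the synthesis enzymes lie below 0, and those of efflux and storage lie above 0.

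Genes outside the lists whose pattern was most like that of the member enzymes were found by Pearson's r over the 6 libraries between log2 CPM and the mean standardised log2 CPM of the 6 enzymes, among 12511 genes averaging 50 counts or more. RNF144B, a ubiquitin ligase, was most like it (r = 0.996), with 26.6, 21.4 and 20.1 CPM in BCSC and 43.9, 34.6 and 34.4 CPM in non-BCSC. UBASH3B (r = 0.995), the lncRNA gene ENSG00000289268 (r = 0.994), SPRY2 (r = 0.993) and the pseudogene ENSG00000244313 (r = 0.991) followed. Their log2 fold changes ran from -1.66 to -0.34, and with 6 libraries in 2 groups such likeness is a description without a test. LSS and DHCR7 had r of -0.09 and 0.39 with HMGCS1, so the mean of the 6 enzymes is not the pattern of the lower ones alone.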

How the data were processed

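LncRNA sequencing was measured in 3 BCSC and 3 non-BCSC libraries, grouped by title, of what the paper describes as paclitaxel-resistant MDA-MB-231. The authors trimmed the reads and aligned them with HISAT2. The paper's methods name hg19 and the submitters' processing notes name hg38, featureCounts and DESeq2. How reads were assigned to transcripts, and whether strand was used, is not given in the sources used here. The deposited values are whole-number estimated counts per transcript, without normalization or coordinates.

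By identifier, 249787 of 252618 transcripts matched GENCODE v44 lifted to GRCh37, which gave symbols, positions, GC content and length. They held 99.7% to 99.8% of the counts. Sums per gene went into edgeR 4.0.16 under R 4.3.3, with TMM scaling, filterByExpr and a robust quasi-likelihood model of group, with Benjamini-Hochberg adjusted p-values over all 20442 genes. The common biological coefficient of variation was 0.453. CPM use TMM library sizes, values are means ± SD with n = 3 and log2 fold changes (with SE) take BCSC relative to non-BCSC. Intervals use the total degrees of freedom of the fit, that is, the residual plus the prior ones.

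The members, lists and tests were chosen with earlier results of these data known. Named were the 8 members, the 4 tested genes of each list with the smallest p, SREBF1, and the 5 genes most like the member enzymes, and of member transcripts the one with most counts and any that passed. Values of some further list genes are not reported here.

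The alternatives comprised DESeq2 1.42.0, RLE size factors, coding transcripts only, no count filter, a minimum of 10 counts per library, leaving out each library, a replicate block, a loess correction for GC content and length per library (span 0.3), and subtraction of a background per kb taken from 391 olfactory receptor genes. Total-count scaling and the GC correction with the block were added after the data were seen. The fit was tested on simulated data with known changes. Promoters came from RefSeq, build GRCh38.p14, and coordinates were not converted between builds.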

Additional observations from a re-analysis of the deposited data

How the results depend on the processing

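HMGCS1, IDI1, FDFT1, SQLE and INSIG1 were lower in BCSC and passed in all 16 alternatives, with log2 fold changes from -2.85 to -1.74, -2.33 to -0.61, -1.66 to -1.14, -1.56 to -0.84 and -3.99 to -3.04. The count of lower members was 8 with the GC content and length correction, alone or with the replicate block. LSS turned negative with RLE size factors (-0.024), at least 10 counts in every library (-0.083), the GC correction (-0.93, with the block -0.90), background subtraction (-0.046) and total-count scaling (-0.011), and ran from -0.27 to 0.52 with each library left out. SREBF2 turned negative with at least 10 counts (-0.043), the GC correction (-0.72, with the block -0.68) and background subtraction (-0.051), and ran from -0.17 to 0.47 with each library left out. DHCR7 ran from -0.68 to 0.072 with each library left out, the latter without non-BCSC replicate 1, and was at -1.37 with the GC correction and block. None of these 3 passed with a library left out. The cause was not tested. Of the other 61 genes, 9 were higher with coding transcripts only and 26 with the GC correction and block, 6 were lower with the GC correction and 5 at a fold above 2, and the number lower ran from 5 (without BCSC replicate 2) to 10 with each library left out, with 7 without non-BCSC replicate 2. Member transcripts that passed numbered 7 with DESeq2, 6 with at least 10 counts, 0 with the block and 0 with any library left out. Of calls over all genes, 51.2% were higher in BCSC, 36.2% with DESeq2 and 75.3% with the GC correction and block.

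Deviations of same-numbered BCSC and non-BCSC libraries had correlations of 0.18, 0.01 and 0.22, against -0.2 to 0.0544 for differently numbered ones. The main fit did not pair the libraries, and whether the replicate numbers pair them was not tested. Over all genes, the replicate block raised the calls from 3125 higher and 2978 lower to 3788 and 3196. The replicate block left the count of lower members at 5 and changed no call of a member gene. Depth differed by group, and genes at a few CPM, such as CYP27A1 and FNTB, rest on few counts in non-BCSC.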
